A study of Mus musculus with 8 samples.

Results

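Long-chain fatty acids reach a cell by way of several gene families, and 10 of their genes were followed here among the 22609 gene symbols counted in mouse dental papilla cells. They were the fatty acid transport proteins Slc27a1, Slc27a3, Slc27a4 and Slc27a6, the scavenger receptor Cd36, the fatty acid binding proteins Fabp4 and Fabp5, the lipoprotein lipase gene Lpl and the acyl-CoA synthetases Acsl1 and Acsl4. Slc27a6 was chosen by its measured read counts, which rose above 0 in Bmp2 knock-out cells, and its values by genotype are therefore a description without a test. The other 9 genes were named for their function, with earlier results of these data known.

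The cells were immortalized mouse dental papilla lines, iBmp2 fx/fx cells with floxed Bmp2 alleles and iBmp2 ko/ko cells with the Bmp2 deletion. The study addressed how gene expression differs when Bmp2, a bone morphogenetic protein gene with a role in dentin formation, is missing. Total RNA was sequenced from 1 library per genotype at each of 4 culture times, 6, 24, 48 and 72 h. The labels give no treatment, so culture time is the sole other variable that they name. The shortest time is written as 8 h in the design text and as 6 h in the labels, which were followed here. Each genotype is 1 cell line, so differences between the lines from other sources cannot be told apart from the Bmp2 deletion.

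The libraries held between 25890110 and 32415665 reads on genes, and 3 reads, taken as the detection floor, amounted to 0.0925 to 0.116 CPM (read counts scaled to the size of the library). Such floors cover counting error only. Bmp2 itself was covered by a single read (1 read, fx/fx cells at 24 h) in all 8 libraries, so its level does not check the genotype labels. The mesenchymal genes Vim, Col1a1 and Col1a2 were abundant in all 8 libraries, whereas the odontoblast gene Dspp had at most 1 read and Dmp1 at most 8. Of 10 genes of this list 8 were tested and 1 differed between genotypes at an adjusted p of at most 0.05, the alkaline phosphatase gene Alpl, with 403 to 1887 reads in the fx/fx libraries, 17 to 35 in the ko/ko libraries of 6, 48 and 72 h and 345 in that of 24 h (log2 fold change -5.61, edgeR adjusted p = 0.0153). The ko/ko library of 24 h stood apart from the other 3 ko/ko libraries for several members and is given separately for each member. Tests were run on 6 libraries, those cultured for 6, 48 or 72 h, which are the times named in the methods of the study. Each genotype thus had 3 libraries of different culture time. Their spread therefore includes any change with culture time.

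Fatty acids carried in triglyceride-rich lipoproteins are released outside the cell by lipoprotein lipase. Transport proteins of the Slc27 family and CD36 take part in their uptake at the membrane, cytosolic fatty acid binding proteins carry them, and acyl-CoA synthetases attach coenzyme A, which traps them in the cell. These genes are best known from fat, muscle and heart, and in many tissues nuclear receptors of the PPAR family, which bind DNA as partners of RXR at repeats of AGGTCA, regulate several of them.

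The start regions of 3 members are shown to let their sequence be read beside the levels below, since Acsl4 and Acsl1 lay on opposite sides between the genotypes and Cd36 was almost without reads. Each runs from 250 bases before to 50 bases after the annotated start in RefSeq on GRCm38.p6, a later build than the mm9 build of the read counts. They are Acsl4 at chrX:142390486-142390785 on the minus strand, the first of 2 starts of Acsl1 at chr8:46470787-46471086 on the plus strand, and Cd36 at chr5:17835847-17836146 on the minus strand. Capitals mark the nuclear receptor motif AGGTCA, which on the other strand is written TGACCT, and the GC box GGGCGG, which on the other strand is written CCGCCC.
Acsl4: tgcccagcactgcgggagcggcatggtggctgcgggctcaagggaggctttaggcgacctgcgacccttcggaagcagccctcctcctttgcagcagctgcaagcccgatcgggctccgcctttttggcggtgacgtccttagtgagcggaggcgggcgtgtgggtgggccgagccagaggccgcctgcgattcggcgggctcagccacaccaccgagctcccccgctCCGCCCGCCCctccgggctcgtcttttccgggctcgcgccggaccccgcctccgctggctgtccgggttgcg
Acsl1: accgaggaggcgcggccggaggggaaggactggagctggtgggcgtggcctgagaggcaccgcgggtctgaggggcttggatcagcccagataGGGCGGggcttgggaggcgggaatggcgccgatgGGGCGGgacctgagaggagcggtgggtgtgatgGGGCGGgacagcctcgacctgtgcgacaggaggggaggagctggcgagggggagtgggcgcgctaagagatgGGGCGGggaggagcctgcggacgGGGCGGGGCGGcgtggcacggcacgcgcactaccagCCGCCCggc
Cd36: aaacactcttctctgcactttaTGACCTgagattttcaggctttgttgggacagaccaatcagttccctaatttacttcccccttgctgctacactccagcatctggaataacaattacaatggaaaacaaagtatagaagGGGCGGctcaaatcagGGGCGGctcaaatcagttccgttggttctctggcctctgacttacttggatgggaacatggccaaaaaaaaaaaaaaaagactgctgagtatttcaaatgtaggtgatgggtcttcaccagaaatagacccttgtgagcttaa

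Of the 10 members, 6 had a start region among those searched, with 9 starts among them. AGGTCA was found on either strand at 1 of the 9 starts, that of Cd36, where it began at position -228 from the start, and 16.3% of all 32851 start regions of this length hold it. A GC box was found at 7 of the 9 starts, against 35.7% of all regions, and the boxes of Acsl4 overlap each other, as do 2 of those of Acsl1. The letters CCAAT occurred at 5 of the 9 starts (37.4% of all regions) and TATAAA at 0 (13.6%). Fabp4, Fabp5 and Lpl were not matched. Start regions on chromosome 18, which holds Slc27a6, were left out of the search for members, so that of Slc27a6 is not described. These matches describe letters and not binding.

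Slc27a6 (chromosome 18 of mm9, 58715911 to 58772427, plus strand), a transport protein best known from the heart, had 0 reads in all 4 libraries of the iBmp2 fx/fx cells. In the iBmp2 ko/ko cells it had 56 reads at 6 h, 52 at 48 h and 31 at 72 h, but 3 reads at 24 h. The ko/ko library of 24 h thus lay at the detection floor while the other 3 lay above it. The level in those 3 libraries was 1.59 ± 0.316 CPM (SD, n = 3), which is at least 16.6-fold higher than the level that 3 reads per fx/fx library would give, 0.0959 CPM. By time, this lower bound was 19.8-fold at 6 h, 18.1-fold at 48 h and 12.3-fold at 72 h. Per length, Slc27a6 was at 0.641 ± 0.127 RPKM (CPM per kilobase of exon, SD, n = 3) in the ko/ko cells, with a highest value of 0.747 RPKM at 6 h, below Slc27a1, Slc27a3 and Slc27a4 in every library.

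**Figure D1:**
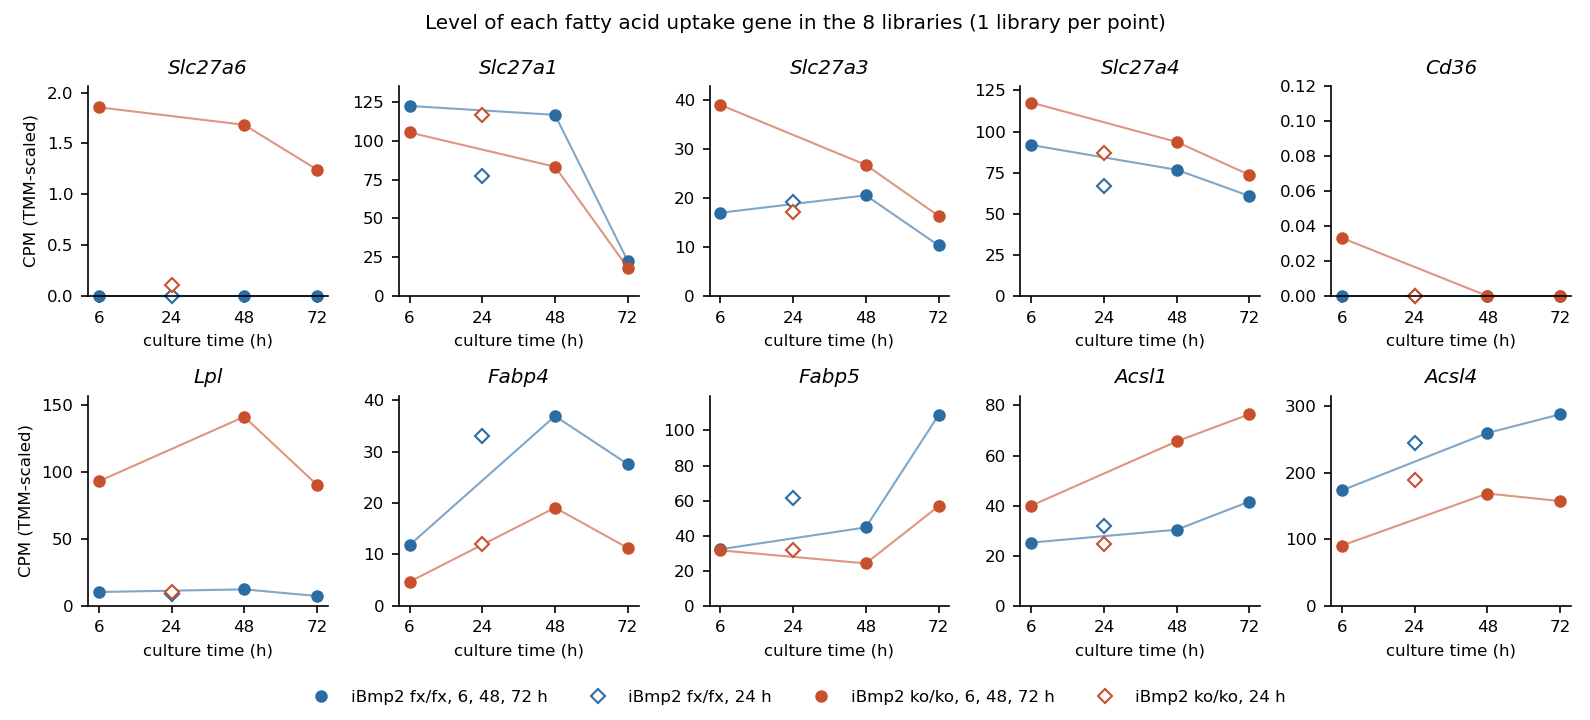
Level of the 10 members in each of the 8 libraries, in CPM scaled by TMM factors, against culture time (spaced evenly, not to scale). Filled circles joined by lines are the libraries of 6, 48 and 72 h, and open diamonds those of 24 h. Blue is iBmp2 fx/fx and red is iBmp2 ko/ko, and the axes differ between panels. Lpl lies between 90.4 and 141 CPM in the filled red circles and at 10.7 CPM in the red diamond.

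Slc27a1 (chromosome 8, 74092826 to 74110607, plus strand), a transport protein known from muscle and fat, differed more between culture times than between genotypes. In the fx/fx cells its level was 122 CPM at 6 h, 77.3 CPM at 24 h, 117 CPM at 48 h and 22.6 CPM at 72 h. In the ko/ko cells it was 105, 116, 83.3 and 18.3 CPM at the same times. Both lines were lowest at 72 h, 5.16-fold below 48 h in the fx/fx and 4.55-fold below it in the ko/ko cells, and the genotypes overlapped. The genotype difference was a log2 fold change of -0.32 (SE 0.76, edgeR adjusted p = 0.904), where a negative value means lower in ko/ko cells.

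Slc27a4 (chromosome 2, 29658154 to 29673042, plus strand), a broadly expressed transport protein with acyl-CoA synthetase activity, was higher in the ko/ko library of all 4 times by a narrow range of 1.21- to 1.30-fold. Its levels were 91.8, 67.1, 76.7 and 60.8 CPM in the fx/fx cells at 6, 24, 48 and 72 h. In the ko/ko cells they were 118, 87.0, 93.7 and 73.7 CPM. The groups overlapped because both lines were lower at later times, and the log2 fold change of 0.33 (SE 0.25) did not pass the test (edgeR adjusted p = 0.637).

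Slc27a3 (chromosome 3, 90189161 to 90193860, minus strand), another acyl-CoA synthetase of this family, had 545, 538, 663 and 307 reads in the fx/fx cells at 6, 24, 48 and 72 h. It had 1178, 462, 827 and 408 reads in the ko/ko cells. The ko/ko library was higher at 6 h by 2.30-fold, at 48 h by 1.30-fold and at 72 h by 1.58-fold, and lower at 24 h. The log2 fold change over the 6 libraries was 0.80 (SE 0.39, edgeR adjusted p = 0.429).

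Cd36 (chromosome 5, 17287508 to 17394777, minus strand), the membrane receptor for long-chain fatty acids in fat, muscle and macrophages, had a total of 1 read over the 8 libraries, in ko/ko cells at 6 h. It was under the floor in both lines and was tested only in the alternative fits without a filter on low counts. It did not pass there, and 1 read cannot show a difference. Of the macrophage markers, Emr1 had 0 reads and Ptprc at most 2 in every library, while Csf1r had 7 to 60 reads and Cd68, which other cells also express, 55 to 397.

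Lpl (chromosome 8, 71404390 to 71431347, plus strand), which encodes the secreted lipase that releases fatty acids from lipoproteins, was the sole member upregulated at the adjusted limit. Its read counts were 332, 250, 398 and 218 in the fx/fx cells at 6, 24, 48 and 72 h, and 2808, 289, 4360 and 2253 in the ko/ko cells. The ko/ko libraries of 6, 48 and 72 h were all above every fx/fx library, while the ko/ko library of 24 h lay among the fx/fx libraries. The levels were 7.34 to 12.3 CPM in the fx/fx libraries and 108 ± 28.6 CPM (SD, n = 3) in the ko/ko cells at 6, 48 and 72 h. The difference on the log2 scale was 3.45 (SE 0.30, edgeR adjusted p = 0.00534). By time the ko/ko library was higher by 8.98-fold at 6 h, 1.20-fold at 24 h, 11.4-fold at 48 h and 12.3-fold at 72 h. With the ko/ko and fx/fx libraries of 24 h included, the log2 fold change was 3.12 and no longer passed (edgeR adjusted p = 0.483).

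A gene was called differentially expressed (DEG) with an adjusted p of at most 0.05 and an absolute log2 fold change of at least 1. By this rule 1 of the 8 members tested was called, Lpl, against 2.19% of the 13121 genes tested. Over 8 libraries 0 of 8 members were called, as were 0 of 13053 genes by edgeR, of which 1336 (10.2%) had an unadjusted p under 0.05. At 6, 48 and 72 h the libraries of a culture time deviated from their genotype means in a like way, and with culture time as a block over the 6 libraries 2 of 8 members were DEGs, Lpl and Fabp4, against 8.45% of all genes. With the block over 8 libraries 1 of 8 was a DEG, Fabp4, against 0.283%, but the 24 h libraries did not deviate alike (r = -0.291 across genes).

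**Figure D2:**
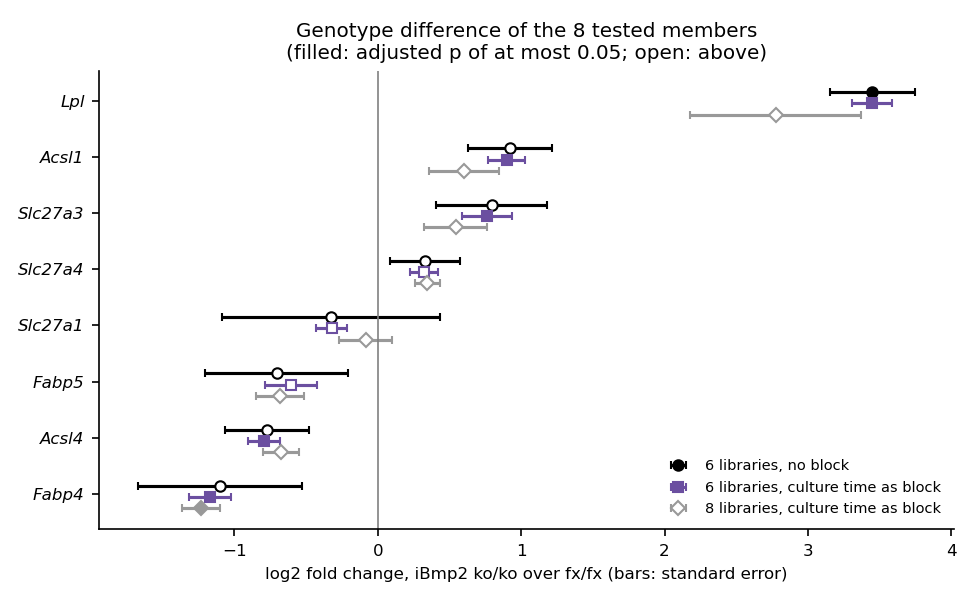
Log2 fold change of the 8 tested members, iBmp2 ko/ko over fx/fx, with bars of 1 standard error, from 3 edgeR fits: 6 libraries without a block (black circles), 6 libraries with culture time as a block (purple squares) and 8 libraries with the block (grey diamonds). Filled markers have an adjusted p of at most 0.05. Lpl, at 3.45, is the sole filled circle, and Fabp4, at -1.23, the sole filled diamond.

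Fabp4 (chromosome 3, 10204347 to 10208576, minus strand), the fatty acid binding protein typical of adipocytes and a known PPAR target, was lower in the ko/ko library of every culture time. Its counts were 380, 926, 1191 and 819 in the fx/fx cells and 142, 324, 590 and 281 in the ko/ko cells at 6, 24, 48 and 72 h. The fx/fx level exceeded the ko/ko level 2.52-fold, 2.75-fold, 1.93-fold and 2.45-fold at these times, so the library of 24 h lay with the other ko/ko libraries for this gene. Because both lines were lowest at 6 h, the groups overlapped and the log2 fold change of -1.10 (SE 0.57) did not pass without the block (edgeR adjusted p = 0.460). With culture time as a block, it was -1.17 (SE 0.15, adjusted p = 0.00204) over 6 libraries and -1.23 (SE 0.13, adjusted p = 0.0427) over 8.

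Markers of cell types known for Fabp4 or Lpl were read beside these levels. Of the 7 adipocyte markers, 5 had at most 3 reads in every library and 0 could be tested, and their summed level was 0.0624 to 0.248 CPM in the fx/fx and 0.298 to 0.388 CPM in the ko/ko libraries of 6, 48 and 72 h. The sum of 6 macrophage markers, a cell type that also expresses Fabp4 and Lpl, was 4.55 to 14.4 CPM in the fx/fx and 2.85 to 3.50 CPM in the ko/ko cells, most of it from Cd68. For 6 endothelial markers, another such type, the sums were 2.26 to 5.55 and 1.93 to 4.47 CPM, with Cldn5 at 0 reads. These sums join markers of opposite direction. Of the 3 tested, Tek had a log2 fold change of 1.62 (edgeR adjusted p = 0.246), Kdr of -1.32 (0.191) and Vwf of -0.47 (0.867). In the ko/ko library of 24 h the 3 sums were 0.111 CPM for adipocytes, 6.41 CPM for macrophages and 3.67 CPM for endothelial cells. The part of such cells in these levels was not tested.

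Fabp5 (chromosome 3, 10012548 to 10016607, plus strand), the epidermal fatty acid binding protein, had 32.3, 61.5, 44.7 and 109 CPM in the fx/fx cells at 6, 24, 48 and 72 h. In the ko/ko cells it had 31.7, 32.0, 24.2 and 56.8 CPM. The lines were alike at 6 h, with an fx/fx level 1.02-fold that of ko/ko, and the fx/fx level was then 1.85- to 1.92-fold higher at the 3 later times. Over the 6 libraries the log2 fold change was -0.70 (SE 0.50, edgeR adjusted p = 0.612), and the groups overlapped. It was -0.03 without the fx/fx library of 72 h and -1.14 without the ko/ko library of 72 h, each of which leaves that culture time in 1 line only. Its counts are uncertain, because 68.8% of its transcript of 987 bases has matches of at least 95% identity elsewhere in mm9, and reads with several positions were not counted. Over all tested genes of chromosome 3, which holds Fabp4, Fabp5 and Slc27a3, the median was -0.39 on the log2 scale, against 0.03 over all genes. The part of this shift in their values was not tested.

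Acsl1 (chromosome 8, 47556395 to 47621405, plus strand), the main long-chain acyl-CoA synthetase of fat and heart, had 810, 895, 980 and 1235 reads in the fx/fx cells and 1207, 665, 2027 and 1906 in the ko/ko cells. The ko/ko level was higher 1.58-fold at 6 h, 2.16-fold at 48 h and 1.84-fold at 72 h, whereas at 24 h it was the lowest of all 8 libraries. The log2 fold change of 0.92 (SE 0.29) had an edgeR adjusted p of 0.216, and with the block over 6 libraries it was 0.90 (SE 0.13, adjusted p = 0.00329), below the fold limit for a DEG.

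Acsl4 (chromosome X, 138752536 to 138825078, minus strand), a synthetase that prefers arachidonate, lay in the opposite direction. Its levels were 173, 244, 259 and 287 CPM in the fx/fx cells at 6, 24, 48 and 72 h and 90.5, 190, 169 and 157 CPM in the ko/ko cells. The groups did not overlap over the 6 libraries, while the ko/ko library of 24 h, the highest of its line, lay above the fx/fx library of 6 h. The log2 fold change was -0.77 (SE 0.30, edgeR adjusted p = 0.305), and -0.79 (SE 0.11, adjusted p = 0.00305) with the block over 6 libraries.

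The groups did not overlap for 2 of the 8 tested members over 6 libraries, Lpl and Acsl4, against 20.0% of all genes tested, and for 0 of 8 over 8 libraries, against 3.64%. The ko/ko library lay on the same side of the fx/fx library at 6, 48 and 72 h for 8 of 8 members, against 58.7% of all genes. At all 4 times this held for 5 of 8, against 32.0%: Slc27a4 and Lpl were higher, and Fabp4, Fabp5 and Acsl4 lower, in the ko/ko library each time. Both counts include any difference, however small, as for Fabp5 at 6 h (31.7 CPM in ko/ko and 32.3 CPM in fx/fx cells). With the block over 6 libraries, 5 of the 8 members had an adjusted p of at most 0.05 at any fold, against 22.7% of all genes. These were Lpl, Acsl1 and Slc27a3, which were higher in ko/ko cells, and Fabp4 and Acsl4, which were lower. With the block over 8 libraries only Fabp4 of these remained at or under 0.05 in edgeR, and the adjusted p was 0.0887 for Lpl, 0.190 for Acsl1, 0.191 for Slc27a3 and 0.0774 for Acsl4.

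**Figure D3:**
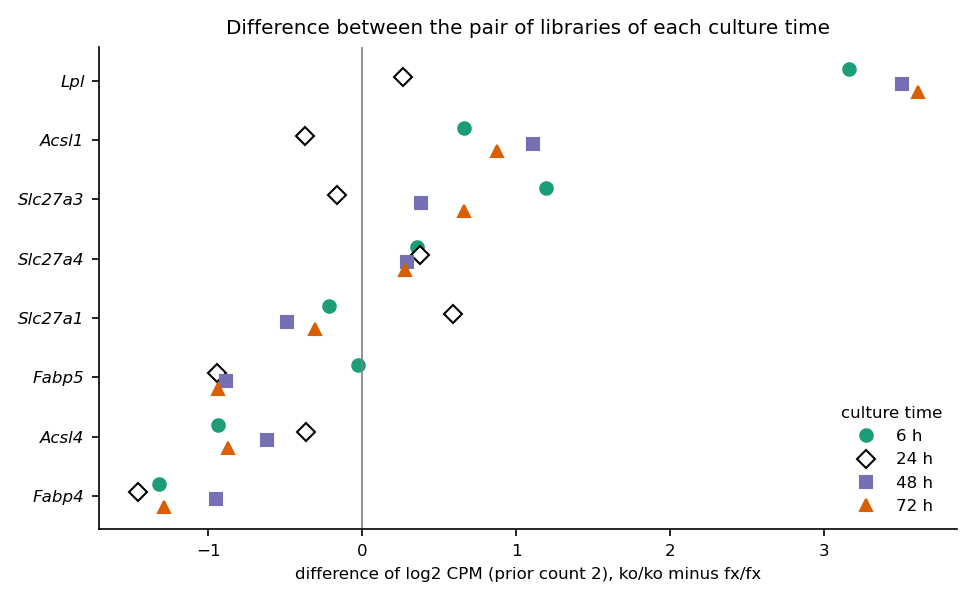
Difference of log2 CPM (prior count 2) between the iBmp2 ko/ko and fx/fx library of each culture time, for each member, with values above 0 higher in ko/ko cells. Lpl is near 3.16 at 6 h and at 0.26 at 24 h, while Fabp4 lies between -1.46 and -0.95 at all 4 times.

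For Lpl, Acsl1, Slc27a3, Slc27a1 and Acsl4, the ko/ko library of 24 h was nearer to the mean of the fx/fx cells than to that of the other ko/ko libraries. This was 5 of 8 tested members, against 65.3% of all genes. For Slc27a4, Fabp4 and Fabp5 it was nearer to the ko/ko mean. It lay within the range of the 4 fx/fx libraries for 6 of the 8, and the exceptions were Fabp5 and Acsl1, which were below that range.

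Per kilobase, the order of the members was led by Acsl4 in both lines, at 44.4 ± 11.0 RPKM in the fx/fx and 25.7 ± 7.80 RPKM in the ko/ko cells (SD, n = 3). In the fx/fx cells there followed Fabp4 (40.0 RPKM), Slc27a1 (31.2), Fabp5 and Slc27a4 (17.4 and 17.3), Slc27a3 (6.21), Acsl1 (3.43) and Lpl (1.47). Neighbours in this order overlapped over the 3 libraries, except that Slc27a4 was above Slc27a3, Acsl1 above Lpl, and Lpl above Slc27a6, in every library. In the ko/ko cells Lpl stood at 15.9 ± 4.20 RPKM, between Fabp4 (18.4 RPKM) and Slc27a3 (10.7), and each of the 8 highest members overlapped its neighbours among those 8. With the length of the longest transcript in place of all exons, Lpl had the highest level of the ko/ko cells, so its place depends on the length used. The RPKM of Fabp5 is uncertain for the same reason and for its copies.

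Culture time was a second axis of variation and was not used to choose the members, though earlier results of these data were known. As a straight trend against log2 time over the 6 libraries, 0 of the 8 members other than Slc27a6 and Cd36 passed the adjusted limit in edgeR, and 4 of 8 had an unadjusted p under 0.05, against 21.1% of all genes. No gene of 13121 passed the adjusted limit in edgeR or in limma. The slopes of these 4, in log2 units per unit of log2 time, were 0.44 for Fabp4 (SE 0.12, edgeR adjusted p = 0.188), 0.22 for Acsl4 (SE 0.05, 0.178), 0.20 for Acsl1 (SE 0.05, 0.188) and -0.16 for Slc27a4 (SE 0.05, 0.199). A difference of the trend between genotypes reached an unadjusted p under 0.05 for 0 of the 8 and for 0.480% of all genes, in a fit with few libraries that called no gene in edgeR or limma and so could not show whether the courses differ. By value, Fabp5 was 3.37-fold higher at 72 h than at 6 h in the fx/fx and 1.79-fold higher in the ko/ko cells.

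By value, some of the time courses were not straight, which was not tested. A fit with the 3 times as separate levels was chosen after seeing the data. In it, 8 of these 8 members passed the adjusted limit in edgeR, against 41.1% of all genes. Slc27a1 had the smallest adjusted p, 0.000906, with its drop at 72 h. Fabp4 (adjusted p = 0.00167) was 3.12-fold higher at 48 h than at 6 h in the fx/fx and 4.06-fold higher in the ko/ko cells. Fabp5 (0.00615) was 2.43-fold higher at 72 h than at 48 h in the fx/fx and 2.35-fold in the ko/ko cells.

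The genes next to Slc27a6 were also read, since it had no reads in 1 line. On its lower side the nearest counted gene was Fbn2 (58168277 to 58369580, minus strand, 346 kb away), which encodes the microfibril protein fibrillin-2. Fbn2 had 3, 0, 1 and 0 reads in the fx/fx cells at 6, 24, 48 and 72 h and 76, 1, 96 and 31 reads in the ko/ko cells. It passed the filter on low counts through the ko/ko libraries alone, so it is described without a test. On the higher side, Isoc1 (58819136 to 58839224, plus strand, 46.7 kb away) had 1148, 1556, 1057 and 893 reads in the fx/fx and 1954, 951, 2565 and 1927 in the ko/ko cells, a log2 fold change of 1.20 (SE 0.18, edgeR adjusted p = 0.0219). Both were higher in the ko/ko libraries of 6, 48 and 72 h than in any fx/fx library, and at 24 h the ko/ko library lay within or below the range of the fx/fx libraries or at the detection floor. Within 2 Mb of Slc27a6, a window chosen after seeing the data, 17 of 27 other genes were tested. Leaving Fbn2 aside, Isoc1 was the only DEG among them, where 2.19% of all genes were DEGs. Some genes not called also had large changes, such as Iigp1 at 3.11 (edgeR adjusted p = 0.0648) and Megf10 at -2.70 (0.145). At 24 h Iigp1 had 484 reads in the fx/fx and 341 in the ko/ko library, and Megf10 had 42 and 162.

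**Figure D4:**
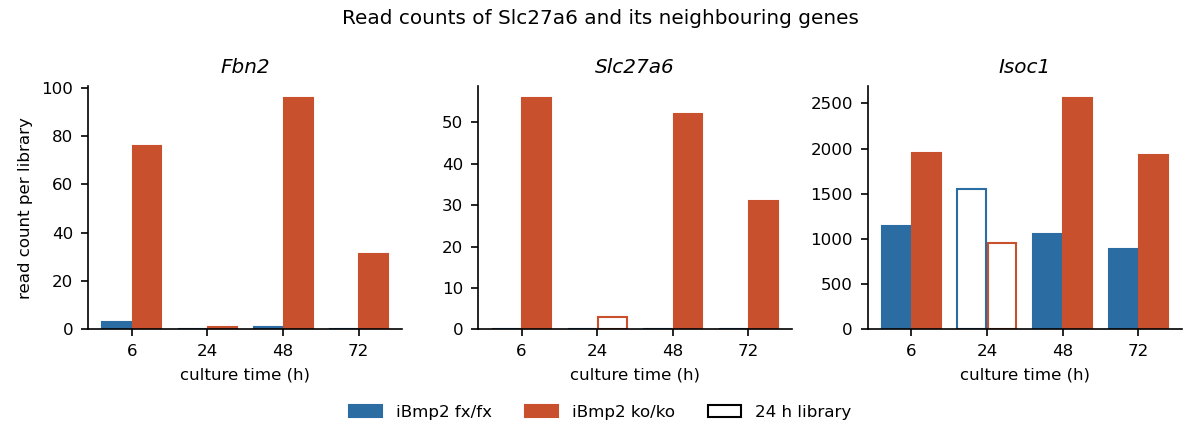
Read counts of Slc27a6 and of the nearest counted gene on each side, Fbn2 and Isoc1, in the 8 libraries by culture time, with blue bars for iBmp2 fx/fx, red bars for iBmp2 ko/ko and open bars for 24 h. Fbn2 has 31 to 96 reads and Slc27a6 31 to 56 reads in the ko/ko libraries of 6, 48 and 72 h, and both have at most 3 in every other library. Each panel has its own scale.

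Across the 8 libraries, the genes whose log2 CPM followed Slc27a6 most closely were Zfp521 (Pearson r = 0.997), Hoxc10 (0.993), Zfp40 (0.990), Cdc42ep5 (0.989) and Phf21b (0.988). These values describe 8 libraries that share 2 genotypes, and are given without a test. Zfp521, which encodes a zinc finger protein, had 16 to 19 reads in the fx/fx cells and 530, 34, 408 and 235 in the ko/ko cells at 6, 24, 48 and 72 h. Its 34 reads in the ko/ko library of 24 h lay above the fx/fx range, and since it was picked for its likeness to Slc27a6, this pattern is part of the choice.

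The other genes of fatty acid handling were read in 7 lists of 102 genes, of which 82 were tested. At the adjusted limit 2 of the 82 were DEGs, against 2.19% of all genes, and both were downregulated. Their median log2 fold change was 0.01, against 0.03 over all genes tested. With culture time as a block over 6 libraries, 5 of 82 were DEGs, against 8.45% of all genes, which added Angptl4 and Lipg as upregulated and Pparg as downregulated. At an adjusted p of at most 0.05 and any fold, 13 of the 82 were higher and 12 lower in the ko/ko cells with this block, against 22.7% of all genes in either direction.

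The largest difference in these lists was that of Fabp7, the brain fatty acid binding protein, with a log2 fold change of -4.80 (SE 0.45, edgeR adjusted p = 0.00681). It had 42.4, 43.8 and 23.5 CPM in the fx/fx cells at 6, 48 and 72 h and 1.33, 0.712 and 1.89 CPM in the ko/ko cells. At 24 h the order was turned, with 20.3 CPM in the fx/fx and 46.7 CPM in the ko/ko library. Over all 8 libraries the log2 fold change was -1.34 and no longer passed (edgeR adjusted p = 0.675). Of the 18 other transport proteins, binding proteins and synthetases, 9 were tested and Fabp7 was the sole DEG, with a list median of 0.22. Slc27a2 and Slc27a5 were too low to be tested.

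Among 11 PPAR and adipogenic regulators, 10 were tested and Cebpa, a transcription factor of fat cell differentiation, was downregulated, with a list median of -0.21. Cebpa stood at 15.9 ± 7.14 CPM in the fx/fx and 2.69 ± 0.326 CPM in the ko/ko cells (SD, n = 3), with 10.7 and 11.7 CPM at 24 h. Its log2 fold change was -2.54 (SE 0.37, edgeR adjusted p = 0.0213), and over all 8 libraries it was -1.54 and no longer passed (adjusted p = 0.483). Without the fx/fx or without the ko/ko library of 48 h neither Cebpa nor Fabp7 was a DEG, and Cebpa also lost its call without the fx/fx or without the ko/ko library of 6 h. Pparg, the nuclear receptor that drives Fabp4 and Lpl in fat cells, had 17.7, 9.10, 14.0 and 6.63 CPM in the fx/fx cells and 4.27, 18.7, 3.17 and 2.93 CPM in the ko/ko cells at 6, 24, 48 and 72 h. Its log2 fold change of -1.87 had an edgeR adjusted p of 0.0786 without the block and 0.00216 with it (-1.80). Over all 8 libraries it was -0.69 (edgeR adjusted p = 0.689). The list had 2 DEGs in place of 1 also without a block in DESeq2, in the 7 libraries without the ko/ko library of 24 h, and without the fx/fx library of 72 h. At 24 h Pparg was higher in the ko/ko library, while Fabp4 was lower there and Lpl was near its fx/fx level. Whether Pparg has a part in the levels of Fabp4 and Lpl was not tested.

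Of 10 partners of lipoprotein lipase, 7 were tested and 0 were DEGs without the block, with a list median of 0.26. Angptl4, an inhibitor of lipoprotein lipase, was 20.8 ± 13.1 CPM in the fx/fx and 46.9 ± 26.4 CPM in the ko/ko cells (SD, n = 3), but at 24 h it was 26.5 CPM in the fx/fx and 7.45 CPM in the ko/ko library. Its log2 fold change was 1.19 (edgeR adjusted p = 0.467), and 1.25 with the block (edgeR adjusted p = 0.000839). Over all 8 libraries it was 0.77 (edgeR adjusted p = 0.673). Lipg, the endothelial lipase, had a log2 fold change of 1.49 (edgeR adjusted p = 0.410), and 1.37 with the block (edgeR adjusted p = 0.00319), with 6.82 CPM in the fx/fx and 13.9 CPM in the ko/ko library of 24 h. Lmf1, which matures the lipase in the endoplasmic reticulum, stood at 0.42 (edgeR adjusted p = 0.692), and at 0.43 with the block (edgeR adjusted p = 0.0451), below the fold limit. Gpihbp1, which anchors the lipase on capillaries, was too low to be tested.

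Enzymes that burn, store or make fatty acids gave 0 DEGs in edgeR with or without the block. The medians were 0.06 over 19 tested genes of mitochondrial oxidation and 0.10 over 10 of peroxisomal oxidation. They were -0.11 over 14 genes of triglyceride synthesis and lipid droplets and -0.08 over 13 of fatty acid synthesis. At the unadjusted limit of DEGs, p under 0.05 with an absolute log2 fold change above 1, there were 0 in each of these 4 lists, against 7.35% of all genes. The largest values were 0.95 for Acaa2, a thiolase of mitochondrial oxidation (edgeR adjusted p = 0.186), 0.58 for Hsd17b4 in peroxisomes (0.145), -0.99 for the lipid droplet gene Plin4 (0.785) and 0.78 for the carboxylase Acacb (0.543). With the block over 6 libraries their edgeR adjusted p was 0.00497, 0.00646, 0.00224 and 0.0179 in the same order, at changes that stayed under the fold limit for a DEG. Over all 8 libraries without the block the changes were 0.82, 0.46, -0.30 and 0.65 (edgeR adjusted p = 0.483, 0.483, 0.926 and 0.543). At 24 h Plin4 was higher in the ko/ko library, at 70.7 CPM against 27.5 CPM in the fx/fx library. The ko/ko and fx/fx levels at 24 h were 37.8 and 32.6 CPM for Acaa2, 72.1 and 71.4 CPM for Hsd17b4, and 8.75 and 7.39 CPM for Acacb.

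**Figure D5:**
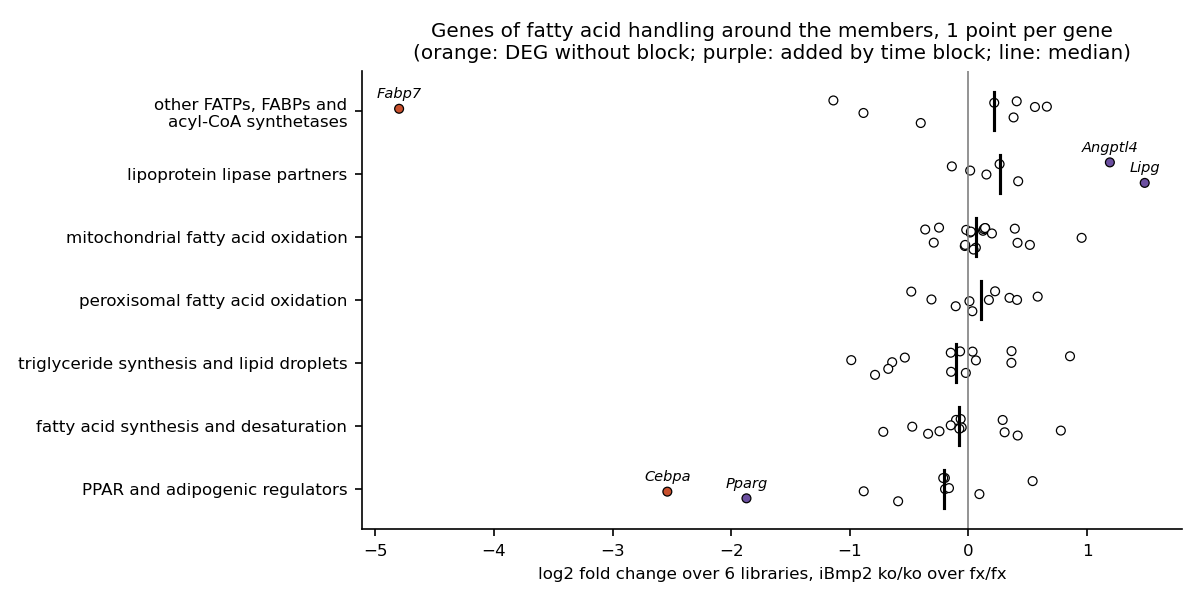
Log2 fold change over the 6 libraries, iBmp2 ko/ko over fx/fx, of the tested genes in the 7 lists of fatty acid handling, with 1 point per gene and a line at each list's median. Orange points are DEGs without the block, and purple points (Angptl4, Lipg, Pparg) are DEGs over these 6 libraries in edgeR with the block and not without it. Fabp7 at -4.80 and Cebpa at -2.54 are the 2 orange points, and the list medians lie between -0.21 and 0.26.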

How the data were processed

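RNA sequencing covered 4 libraries of each cell line. Per the labels, reads were processed with CASAVA 1.8.2, aligned to mm9 with TopHat2 2.0.8b and counted with HTSeq, and the authors deposited raw counts per gene symbol, without normalization. The strand setting and the annotation are not given in the sources used here, and the sources differ on single- or paired-end reads. Reads placed at several positions made up 41.3 to 49.6% of the alignments and were not counted. HTSeq's summary rows were left out, as were the lncRNA tables. Symbols were matched to GENCODE M1 on mm9 (95.7%).

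Genotype was tested with edgeR 4.0.16 in R 4.3.3 (TMM factors, filterByExpr with 10 counts and 15 in total, quasi-likelihood test, Benjamini-Hochberg adjustment over all genes tested), after a test on simulated data with known changes. The CPM and RPKM given were computed from the counts with TMM factors, and RPKM used the merged exons of each gene. P-values measure the spread between libraries of 1 cell line each. Pairing by culture time rests on the labels and was checked: deviations from the genotype means correlated at 0.536 to 0.840 for the same time and at -0.695 to 0.168 otherwise, over 6 libraries. Over 8 libraries the 24 h libraries correlated at -0.291 with each other, and unlike times at up to 0.434, so the block over 8 libraries is not supported by this check. The alternatives were other libraries, the block, DESeq2 1.42.0, limma 3.58.1, other scalings, filters and prior counts, and leaving out each library.

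The members and lists were chosen with earlier results of these data known. The genes named are the members, Bmp2, the neighbours of Slc27a6, its 5 most alike genes, markers, and in each list its DEGs or else up to 3 genes with the largest change. Pparg, Slc27a2, Slc27a5, Gpihbp1, Iigp1 and Megf10 were named outside this rule, after their values were seen. Near-identical copies were searched in mm9 with matches of at least 95% identity over 100 bases.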

Additional observations from a re-analysis of the deposited data

How the results depend on the processing

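Over all genes, the 287 DEGs became 0 over all 8 libraries, 1109 with culture time as a replicate block over 6 libraries, 37 with the block over 8, 659 with DESeq2 and 144 with at least 10 counts in every library, and ranged from 9 to 378 when each library was left out in turn. The fewest, 9 and 14, came without the ko/ko and the fx/fx library of 48 h. DEGs by unadjusted p went from 964 to 463 over all 8 libraries and ranged from 781 to 1343 with 1 library left out. Among the members the 1 DEG became 0 over all 8 libraries and 2 with the block over 6, and stayed at 1 without any of the 6 libraries in turn. In the 7 lists the 2 DEGs became 0 over all 8 libraries, 5 with the block over 6 and 0 with the block over 8, and ranged from 0 to 3 with 1 library left out. They were 0 without the fx/fx or the ko/ko library of 48 h and 1 without either library of 6 h.

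Lpl had a log2 fold change of 3.12 over all 8 libraries (edgeR adjusted p = 0.483) and 2.77 with the block over 8 (0.0887), and 3.21 to 3.62 with 1 library left out (0.00417 to 0.0436). The lower bound for Slc27a6 went from 16.6-fold to 12.4-fold over all 8 libraries, and from 15.3- to 18.5-fold with 1 library left out. Genes past the limit for a time trend went from 0 to 1 over all 8 libraries and to 4 with time in hours. With 1 library left out, the genotype log2 fold change was -1.66 to -0.72 for Fabp4 and 0.45 to 1.04 for Slc27a3. It was 0.14 to 0.47 for Slc27a4, 0.71 to 1.15 for Acsl1 and -0.97 to -0.54 for Acsl4. None of these genes passed the adjusted limit in those fits. Slc27a1 turned to 0.10 without the ko/ko library of 72 h (range -0.79 to 0.10), and the time slope of Lpl turned to -0.0025 per hour and to -0.012 in limma. The cause was not tested. Depth limits Cd36, with at most 1 read in every library, and Slc27a6, with 0 reads in the fx/fx libraries. The block over 6 libraries changed no other DEG call of a member or listed gene. Of the 5 genes most like Slc27a6, 4 were shared with a prior count of 0.5 and 2 over 6 libraries.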
